A study of Homo sapiens with 10 samples.

Results

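CXC chemokines are small secreted proteins named for the spacing of their first cysteines, and 10 of their genes were followed across all 10 culture conditions of the series: CXCL1, CXCL2, CXCL3, CXCL5, CXCL6, CXCL8, CXCL10, CXCL11, CXCL14 and CXCL16. Each was measured by the probe sets that the array annotation assigns to that symbol alone, 18 in all, and the one brightest on average across the 10 arrays stands for the gene. They make up 10 of the 19775 genes with such a probe set. Of the members, 5 have 1 probe set and 5 have several.

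The conditions comprised THP1, a monocytic leukaemia line labelled as macrophages, with vitamin D3 and alone; Hke3, a colorectal carcinoma line derived from HCT116, in coculture with THP1 plus vitamin D3, in coculture, with vitamin D3 and alone; and HCT116 itself in the same 4 states. In coculture the cells shared soluble factors but did not touch, vitamin D3 was given for 24 hours, and each condition has 1 array. The carcinoma lines grew in MEM and THP1 in RPMI, so line and medium cannot be told apart between THP1 and the carcinoma cells, and Hke3 is a single derived clone. The THP1 cells of the cocultures were not profiled.

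Members with a glutamate-leucine-arginine sequence before the cysteines, namely CXCL1, CXCL2, CXCL3, CXCL5, CXCL6 and CXCL8, attract neutrophils through the receptors CXCR1 and CXCR2, and their genes respond to IL-1, TNF and bacterial products through NF-kB. CXCL10 and CXCL11 are interferon-induced ligands of CXCR3 on activated T cells. CXCL14 is a constitutive chemokine of epithelia, and CXCL16 is made as a membrane-bound ligand of CXCR6 that the protease ADAM10 sheds.

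Of the 10 genes, 8 lie on chromosome 4, CXCL14 on chromosome 5 and CXCL16 on chromosome 17 (RefSeq, GRCh38.p14), and the RefSeq promoter table holds a window for 9 of them. The windows of the 8 genes on chromosome 4 are shown for the letters they share, since members with large differences between conditions (CXCL1, CXCL2, CXCL6 and CXCL8) lie beside members at low signal (CXCL3 and CXCL5). Each is 80 bases on the gene's own strand, 5′ to 3′, upstream of the start site. Capitals mark matches to an NF-kB-like motif (GGNNNTTCC), an AP-1-like motif (TGANTCA) or an interferon-response-like motif (a GAAA repeat across any 2 bases), which do not overlap in these windows.
CXCL8 at chr4:73740428-73740507, plus strand: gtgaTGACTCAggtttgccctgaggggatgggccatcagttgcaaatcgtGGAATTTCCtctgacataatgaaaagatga
CXCL1 at chr4:73869290-73869369, plus strand: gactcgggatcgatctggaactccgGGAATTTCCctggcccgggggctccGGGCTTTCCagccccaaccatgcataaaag
CXCL2 at chr4:74099219-74099298, minus strand: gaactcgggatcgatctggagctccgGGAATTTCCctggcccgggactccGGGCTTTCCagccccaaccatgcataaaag
CXCL3 at chr4:74038713-74038792, minus strand: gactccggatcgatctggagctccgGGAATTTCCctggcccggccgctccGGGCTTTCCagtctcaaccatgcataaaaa
CXCL6 at chr4:73836539-73836618, plus strand: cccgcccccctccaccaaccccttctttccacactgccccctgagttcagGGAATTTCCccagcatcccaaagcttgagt
CXCL5 at chr4:73998738-73998817, minus strand: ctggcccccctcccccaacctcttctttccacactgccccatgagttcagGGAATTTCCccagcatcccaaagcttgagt
CXCL10 at chr4:76023644-76023723, minus strand: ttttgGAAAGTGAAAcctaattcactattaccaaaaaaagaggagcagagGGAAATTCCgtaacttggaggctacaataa
CXCL11 at chr4:76036116-76036195, minus strand: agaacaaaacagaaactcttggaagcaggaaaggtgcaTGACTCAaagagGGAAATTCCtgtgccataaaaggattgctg

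Across the 250 bases upstream of each start site, searched on both strands, the NF-kB-like motif was found in 8 of 9 member windows, all but that of CXCL14, against 17.1% of 35116 RefSeq promoters. The 9 letters GGAATTTCC stood at -78 to -70 in CXCL1 and CXCL3, -77 to -69 in CXCL2, -90 to -82 in CXCL5, -89 to -81 in CXCL6 and -91 to -83 in CXCL8. The AP-1-like motif was found in 3 members (CXCL8, CXCL11 and CXCL14) against 6.57% of promoters. The interferon-response-like motif was found in CXCL10 alone, against 3.02%, and a C/EBP-like motif (TTGCNNAA) in CXCL2 alone, against 9.05%. In global alignments the windows of CXCL5 and CXCL6 were 85.3% identical and those of CXCL1 and CXCL3 81.4%, with 70.4% between CXCL1 and CXCL2. Windows so alike are not independent of each other, which limits the comparison of 8 of 9 with 17.1%. A match describes the letters of the reference sequence, and binding was not measured here.

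**Figure D1:**
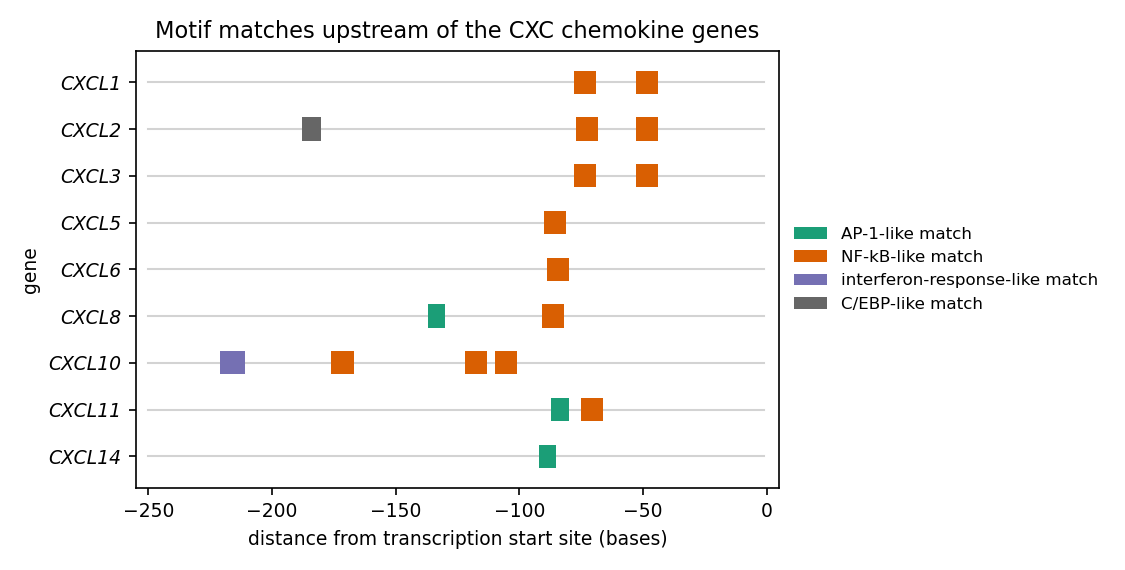
Motif matches in the 250 bases upstream of 9 CXC chemokine genes, by distance from the transcription start site in bases; each grey line is 1 gene's window and each coloured block is 1 match on either strand. The orange NF-kB-like blocks of CXCL1, CXCL2 and CXCL3 line up in pairs, CXCL10 has 3 of them, and CXCL14 has none.

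The labelled cell types were set against marker lists. All 8 epithelial markers exceeded 6.18 log2, the median of all values, on each colon cancer array, and EPCAM lay between 13.06 and 13.55 there. All 13 monocyte and macrophage markers with a probe set of their own did so on both THP1 arrays. On the colon cancer arrays 4 or 5 of these 13 exceeded it, with list medians of 5.28 to 5.43 against 11.82 in THP1 with vitamin D3 and 11.27 in THP1 alone. PTPRC, which all white blood cells carry, stayed at 4.06 to 4.43 on the colon cancer arrays. The proteoglycan gene SRGN read 6.28 on the array of cocultured Hke3 labelled vitamin D3 and at most 4.90 on the other colon cancer arrays.

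The vitamin D3 labels were set against CYP24A1, the hydroxylase that vitamin D induces. It read 10.40 in THP1 with vitamin D3 and 4.51 in THP1 alone, and was higher with vitamin D3 by 1.45 log2 in Hke3 and 1.44 in HCT116 without coculture. In coculture the sign was the opposite, with differences of -1.36 in Hke3 and -0.98 in HCT116. Coculture arrays labelled without vitamin D3 read 12.25 in Hke3 and 10.68 in HCT116, against 10.89 and 9.99 in these lines alone. By this gene the vitamin D3 labels of the coculture arrays, with and without it, are thus in doubt. The members' coculture and line results are also given without both arrays labelled coculture with vitamin D3. Those fits keep the coculture arrays labelled without it, so for coculture they do not settle the doubt. The vitamin D3 results are also given on the arrays without coculture. The Hke3 array titled with vitamin D3 is also called untreated in 1 label field. The ACTB 3′ minus 5′ difference, a measure of RNA quality, was 0.56 to 0.94 log2 in Hke3 and 0.16 to 0.30 in HCT116. Its part in the line differences below was not tested.

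**Figure D2:**
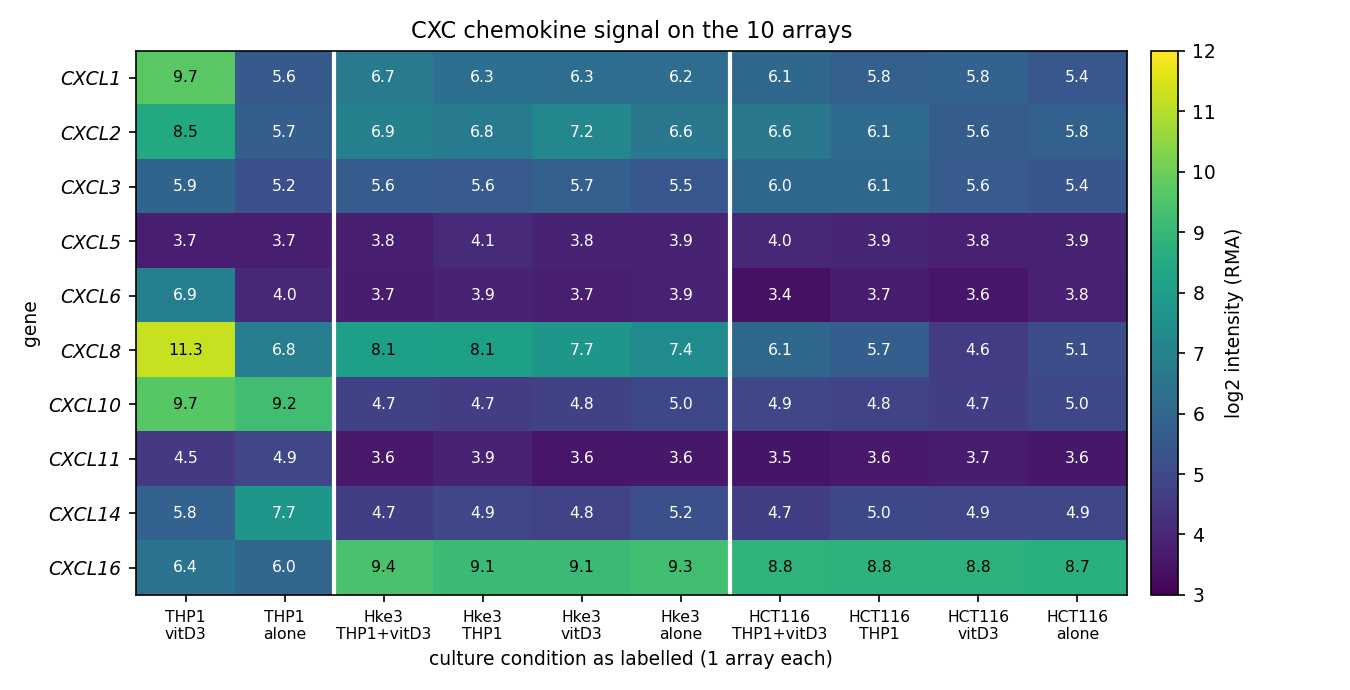
RMA log2 intensity of the representative probe set of each CXC chemokine gene (rows) on each of the 10 arrays (columns, as labelled), with values printed in the cells; probe sets differ in brightness, so colours are to be read along a row. The highest cell of CXCL1, CXCL2, CXCL6, CXCL8 and CXCL10 is THP1 with vitamin D3, while CXCL16 is brightest in the 4 Hke3 columns.

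THP1 cells with vitamin D3 gave higher signal for 4 neutrophil-attracting chemokines than THP1 cells alone, and lower signal for CXCL14. These are differences between 2 arrays, and as in all bulk samples fewer cells making a transcript and less of it per cell cannot be told apart. CXCL8, the principal neutrophil attractant of the family, read 11.25 log2 with vitamin D3 and 6.84 alone, a difference of 4.41 log2 or 21.3-fold. Its other probe set read 10.14 with vitamin D3 and 6.44 alone. CXCL1, a CXCR2 ligand first found as a melanoma growth factor, read 9.68 with vitamin D3 and 5.55 alone, 17.6-fold higher. For both genes the array with vitamin D3 was the brightest of the 10.

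CXCL6, a ligand of both CXCR1 and CXCR2, read 6.88 in THP1 with vitamin D3 and 4.05 alone, a difference of 2.84 log2. CXCL2, a close paralogue of CXCL1, read 8.46 with vitamin D3 and 5.72 alone, a difference of 2.73 log2. The value of CXCL2 rests on 1 probe set: the other two read 4.52 and 4.04 with vitamin D3 and 4.81 and 3.98 alone. The suffix of the CXCL2 probe set used, and of the brighter CXCL8 one, marks designs in which some probes can match other transcripts, so signal from CXCL1 or CXCL3 in the CXCL2 value is uncertain. CXCL3, another paralogue of CXCL1, read 5.90 with vitamin D3 and 5.19 alone, under 6.18 on both arrays. CXCL5, the neighbour whose upstream window most resembles that of CXCL6, read 3.75 on both arrays.

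CXCL14 read 5.82 with vitamin D3 and 7.75 alone, a difference of -1.92 log2. A further probe set gave 5.87 with vitamin D3 and 8.09 alone, while the third differed little, at 4.90 with vitamin D3 and 5.07 alone. CXCL10 read 9.66 with vitamin D3 and 9.23 alone, CXCL11 4.50 with vitamin D3 and 4.92 alone, and CXCL16 6.43 with vitamin D3 and 5.96 alone. Thus the CXCR3 ligand CXCL10 did not change by as much as 2-fold between these arrays. CXCL11, which shares that receptor, lay under 6.18 log2 on both and is too dim to judge.

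Among 12717 genes above 6.18 log2 on at least 1 THP1 array, 1.56% were at least 2-fold higher with vitamin D3 and 0.488% at least 2-fold lower. The 7 members in that set included 4 that were higher by at least 2-fold and 1 that was lower. In the order of all rises CXCL8 stood at rank 8, CXCL1 at 9, CXCL6 at 19 and CXCL2 at 22, and CXCL14 stood at rank 10 among falls. The median difference over all these genes was -0.01 log2. CXCL1, CXCL2, CXCL6 and CXCL16 entered the set through the array with vitamin D3 and CXCL14 through the array alone, so some difference was built in for these 5.

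**Figure D3:**
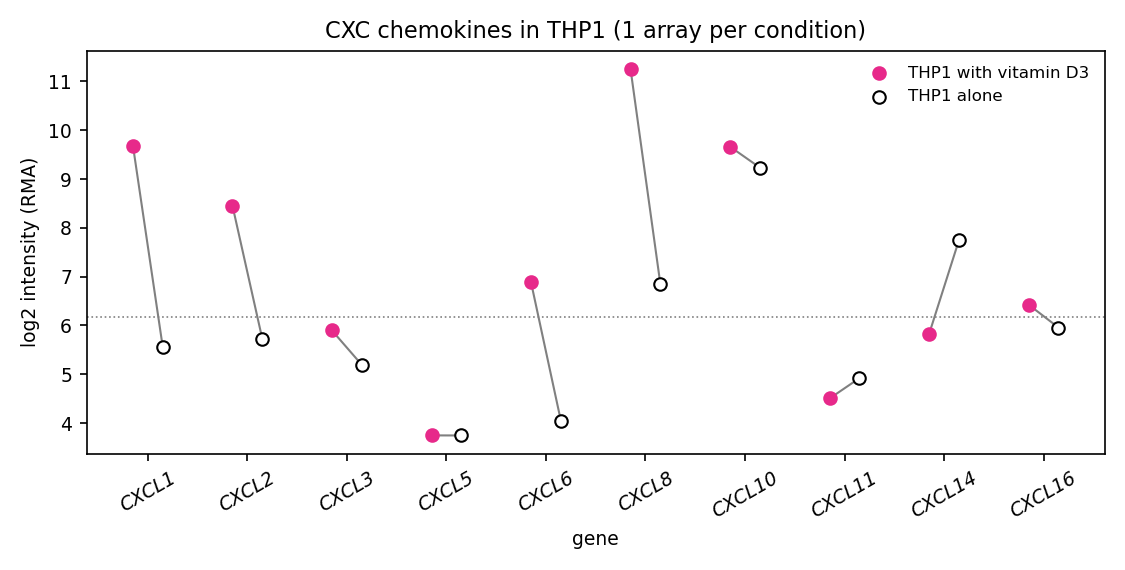
RMA log2 intensity of the 10 CXC chemokine genes in THP1 with vitamin D3 (filled, left) and THP1 alone (open, right), 1 array each, joined by a line; the dotted line is 6.18 log2, the median of all values. CXCL1, CXCL2, CXCL6 and CXCL8 are higher with vitamin D3, CXCL14 is lower, and CXCL5 is level at 3.75.

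Whether the vitamin D3 difference of THP1 departed from that of the colon cancer lines was tested with limma over all 10 arrays, a test chosen after the values were seen. THP1 was assumed to vary like the colon cancer arrays, since its 2 arrays leave no spread of their own. The difference between THP1 and the carcinoma lines was 4.37 ± 0.35 log2 for CXCL8 (SE; adjusted p = 0.000398), 3.85 ± 0.16 for CXCL1 (adjusted p = 1.51e-05) and 2.47 ± 0.36 for CXCL2 (adjusted p = 0.00747). CXCL6 (3.05 log2) and CXCL14 (-1.69 log2) were bright enough on 1 array each, the THP1 array on which they were high, so a difference was built in and their values are a description. In this fit 4.09% of 13879 genes passed the threshold, an adjusted p of 0.05, 2.8% with a higher value in THP1 and 1.29% with a lower one. CXCL10 (0.49 ± 0.19, adjusted p = 0.238) and CXCL16 (0.41 ± 0.16, adjusted p = 0.236) did not pass, and the second probe set of CXCL2 gave -0.27 (adjusted p = 0.683). On the 6 arrays without coculture, whose vitamin D3 labels CYP24A1 does not put in doubt, CXCL10 passed as well (0.66, adjusted p = 0.0274). That fit called more genes than the one on all 10 arrays, and both counts are given in the last section.

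The members' level in THP1 was then set against the carcinoma lines, over the 6 arrays without coculture. CXCL10, which draws activated T cells, read 9.66 and 9.23 in THP1 against 4.79 and 4.96 in Hke3 and 4.66 and 4.96 in HCT116, with vitamin D3 and alone in that order for each line. The difference in the fit was 4.61 ± 0.16 log2. CXCL16 went the other way, with 6.43 and 5.96 in THP1, 9.15 and 9.29 in Hke3 and 8.77 and 8.70 in HCT116. Its difference was -2.78 ± 0.14 log2 (limma, adjusted p = 3.79e-05), and the carcinoma values did not overlap with those of THP1. For CXCL14 the difference was 1.82 ± 0.40 log2. CXCL6, CXCL10 and CXCL14 exceeded 6.18 log2 in THP1 only, so they entered this contrast through the group where they were high, and their values are a description. CXCL3, CXCL5 and CXCL11 stayed below it on every array and were not tested. In this contrast 66.3% of 13778 genes passed, 27.2% higher and 39.1% lower in THP1, so a call here is the common case.

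For 4 members the level in THP1 relative to the carcinoma lines depended on which THP1 array was used. CXCL8 differed by 2.83 ± 1.01 log2 (adjusted p = 0.0554), by 0.58 without the THP1 array with vitamin D3 and by 5.07 without the THP1 array alone. Its second probe set gave 2.47 and passed (adjusted p = 0.0295), as did the brighter one when all 10 arrays were used (2.83, adjusted p = 0.0133). CXCL1 differed by 1.68 ± 0.87 log2 (adjusted p = 0.148), and its difference was -0.28 without the THP1 array with vitamin D3 and 3.64 without the one alone. CXCL2 gave 0.78 ± 0.58 log2 (adjusted p = 0.287), with -0.48 and 2.05 without the same arrays. CXCL6 gave 1.72 ± 0.67 log2, and 3.23 without the THP1 array alone.

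Of the 10 members, 4 exceeded 6.18 log2 on at least 1 colon cancer array and were tested there: CXCL1, CXCL2, CXCL8 and CXCL16. CXCL3 came closest among the others, at 5.41 to 6.05 log2 over the 8 arrays. CXCL5 lay between 3.77 and 4.08, CXCL6 between 3.40 and 3.88, CXCL10 between 4.65 and 4.96, CXCL11 between 3.52 and 3.91 and CXCL14 between 4.67 and 5.18. At these levels the arrays leave their expression in the carcinoma lines undecided.

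All 4 tested members were higher in Hke3 than in HCT116, CXCL8 by the most. CXCL8 and CXCL1 were bright enough for the test on Hke3 arrays only, so a difference was built in for these. CXCL8 read 8.07, 8.10, 7.75 and 7.39 log2 in Hke3, against 6.06, 5.70, 4.62 and 5.14 in HCT116, each in the order coculture with vitamin D3, coculture, vitamin D3 and alone. The lines did not overlap, and the difference was 2.45 ± 0.16 log2 (SE; limma, adjusted p = 3.21e-05, higher in 4 of 4 pairs). Its size is approximate, because the HCT116 mean of 5.38 lies under 6.18 log2, and the second CXCL8 probe set gave 1.06. CXCL2 read 6.94, 6.75, 7.17 and 6.62 in Hke3 against 6.60, 6.15, 5.65 and 5.79 in HCT116, in the same order. The lowest Hke3 value, 6.62, lay just above the highest HCT116 value, 6.60. The difference was 0.82 ± 0.16 (adjusted p = 0.0046), and its second probe set gave 0.03 (adjusted p = 0.847).

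CXCL1 read 6.70, 6.29, 6.27 and 6.23 in Hke3 against 6.05, 5.77, 5.83 and 5.43 in HCT116, a difference of 0.60 ± 0.07 log2 (adjusted p = 0.000449). CXCL16 read 9.41, 9.13, 9.15 and 9.29 in Hke3 against 8.84, 8.81, 8.77 and 8.70 in HCT116, a difference of 0.46 ± 0.07 (adjusted p = 0.00154). Every Hke3 value of both genes exceeded every HCT116 value, as for CXCL8 and CXCL2. How many of all genes tested do so was not counted. The line contrast called 40.5% of 13243 genes, 24.8% higher and 15.7% lower in Hke3, so line differences were widespread. CXCL1 and CXCL8 exceeded 6.18 log2 on Hke3 arrays only, and CXCL2 on all 4 of them and 1 HCT116 array. The members that could be tested thus leaned towards those high in Hke3, and the values of CXCL1 and CXCL8 are a description. Both also passed with no filter on dim genes. The 6 untested members differed by -0.46 log2 (a CXCL3 pair) to 0.32 (a CXCL6 pair). CXCL16 and the brightest probe set of CXCL2 passed without each array in turn and without both arrays labelled coculture with vitamin D3. CXCL1 and CXCL8 did so too, with the same built-in difference.

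**Figure D4:**
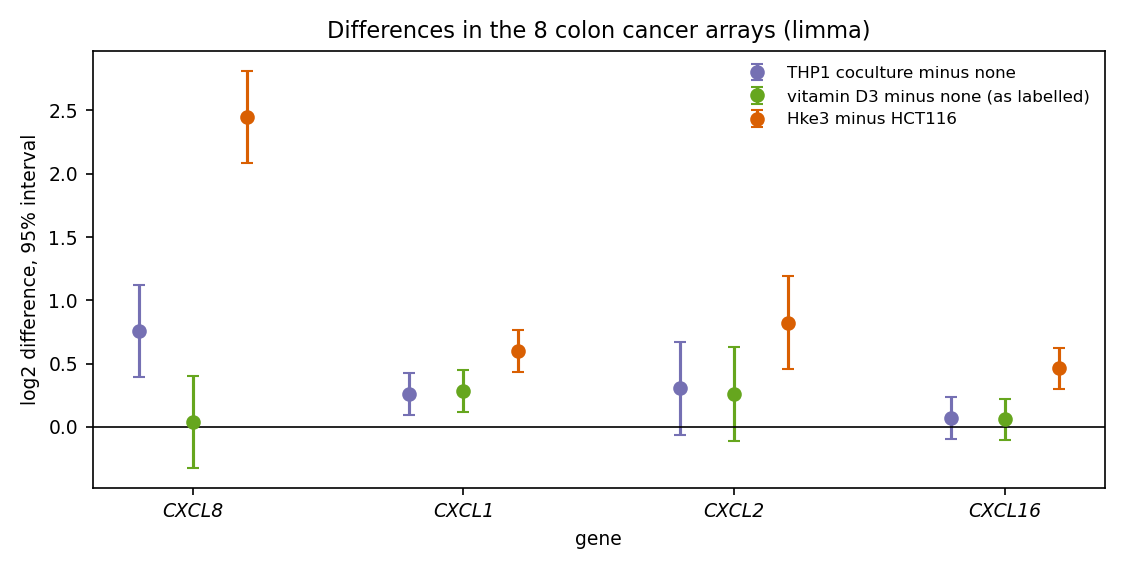
Differences in log2 intensity with 95% intervals (limma, 8 colon cancer arrays) for CXCL8, CXCL1, CXCL2 and CXCL16, by factor: THP1 coculture minus none, vitamin D3 minus none as labelled, and Hke3 minus HCT116. The line difference is the largest for each gene, at 2.45 for CXCL8, and the vitamin D3 interval of CXCL8 spans 0.

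Of the 4 tested members, only CXCL8 passed for THP1 coculture. It was higher in the cocultured array of all 4 pairs, by 0.32 with vitamin D3 and 0.71 without in Hke3, and by 1.44 with vitamin D3 and 0.56 without in HCT116. Every HCT116 value of CXCL8, at most 6.06, lay under 6.18 log2, so its HCT116 differences are approximate. The largest, 1.44, rests on a value of 4.62 in HCT116 with vitamin D3 and no coculture. The difference over both lines was 0.76 ± 0.16 log2, or 1.69-fold (limma, adjusted p = 0.0304), where 7.82% of 13243 genes passed and 3.76% were higher. The second probe set gave 0.69 (adjusted p = 0.0303), with differences of 0.70 and 1.17 in Hke3 and 0.69 and 0.21 in HCT116, with and without vitamin D3. The fit without a vitamin D3 term, which makes no use of those labels, kept the call (adjusted p = 0.0163).

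The coculture call of CXCL8 was close to the threshold. It was lost without Hke3 in coculture (0.80, adjusted p = 0.0644), Hke3 alone (0.74, adjusted p = 0.0788), HCT116 in coculture with vitamin D3 (0.62, adjusted p = 0.078), HCT116 in coculture (0.78, adjusted p = 0.0729), HCT116 with vitamin D3 (0.56, adjusted p = 0.0509) or HCT116 alone (0.84, adjusted p = 0.0567), with a block of the other 2 factors (0.76, adjusted p = 0.0647), and without both arrays labelled coculture with vitamin D3 (0.64, adjusted p = 0.246). Without the Hke3 array with the high SRGN value it held (0.84, limma, adjusted p = 0.0499). Fits without 1 array called 39 to 459 genes in all, against 1035 in the main fit. The CXCL8 level in THP1 alone, 6.84 log2, lay below both Hke3 coculture arrays at 8.07 and 8.10 and above both HCT116 coculture arrays at 6.06 and 5.70, while THP1 with vitamin D3 read 11.25. Whether RNA of THP1 cells adds to these values was not tested.

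The other tested members did not pass for coculture. CXCL1 was higher in 4 of 4 pairs, by 0.43 with vitamin D3 and 0.05 without in Hke3, and 0.22 with vitamin D3 and 0.34 without in HCT116 (0.26 ± 0.07 log2, adjusted p = 0.0621, 95% interval 0.10 to 0.43). CXCL2 differed by -0.22 and 0.14 in Hke3 and 0.95 and 0.36 in HCT116, with and without vitamin D3 (0.31 ± 0.16, adjusted p = 0.267, interval -0.06 to 0.67). CXCL16 gave 0.07 ± 0.07 (adjusted p = 0.571, interval -0.09 to 0.23). Without both arrays labelled coculture with vitamin D3, CXCL1 gave 0.20, CXCL2 0.25 and CXCL16 -0.023. CXCL3, under 6.18 log2 throughout and so untested, differed by -0.14 and 0.14 in Hke3 and by 0.39 and 0.64 in HCT116. The pairs of CXCL5, CXCL6, CXCL10, CXCL11 and CXCL14 differed by -0.31 to 0.34.

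Averaged over the vitamin D3 labels, the coculture difference of CXCL2 was -0.04 log2 in Hke3 and 0.65 in HCT116, and that of CXCL8 0.52 in Hke3 and 0.999 in HCT116. The tests of these differences between lines gave -0.70 ± 0.21 for CXCL2 (limma, adjusted p = 0.115) and -0.48 ± 0.28 for CXCL8 (adjusted p = 0.361), and neither passed, where 4.21% of 13243 genes did, 1.87% with a larger difference in Hke3 and 2.34% with a smaller one. For CXCL8 the second probe set had the opposite sign, 0.49 (adjusted p = 0.328). HCT116 values of CXCL8 all lay under 6.18 log2, as did most of CXCL2, so both HCT116 differences are approximate. CXCL1 (-0.04) and CXCL16 (-0.04) did not pass either. Without both arrays labelled coculture with vitamin D3 the values were -0.57 for CXCL2, -0.29 for CXCL8, -0.11 for CXCL1 and -0.16 for CXCL16, and none passed.

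**Figure D5:**
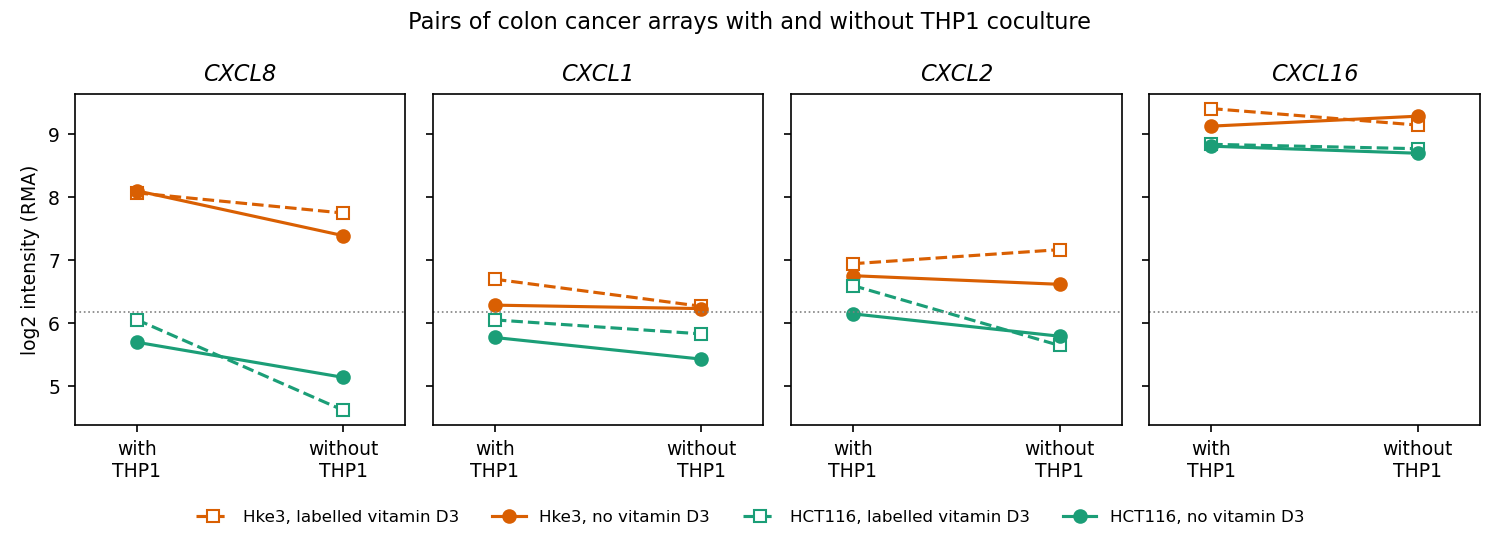
RMA log2 intensity of CXCL8, CXCL1, CXCL2 and CXCL16 in pairs of colon cancer arrays with THP1 coculture (left) and without (right), joined by lines; colour marks the line, open squares the arrays labelled vitamin D3, and the dotted line is 6.18 log2. All 4 CXCL8 lines are higher on the coculture side, and the Hke3 values of each gene lie above those of HCT116.

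Vitamin D3, as labelled, called none of 13243 genes in the 8 colon cancer arrays by limma (0%; 375 genes had an unadjusted p under 0.05), and so none of the members. CXCL1 was higher with vitamin D3 in 4 of 4 pairs, by 0.41 in coculture and 0.04 without it in Hke3, and by 0.28 in coculture and 0.40 without it in HCT116 (0.28 ± 0.07 log2, adjusted p = 1, 95% interval 0.12 to 0.45). CXCL2 gave 0.26 ± 0.16 (interval -0.11 to 0.63), CXCL8 0.04 ± 0.16 (interval -0.32 to 0.40) and CXCL16 0.06 ± 0.07 (interval -0.10 to 0.22). On the 4 colon cancer arrays without coculture the values were 0.22 for CXCL1, 0.20 for CXCL2, -0.08 for CXCL8 and -0.03 for CXCL16, with adjusted p from 0.69 to 0.954. The pairs of the 6 untested members differed by -0.35 log2 (CXCL14) to 0.30 (CXCL3) with vitamin D3. The interactions of vitamin D3 with line and with coculture called no gene either (144 and 652 genes had an unadjusted p under 0.05), and the members' estimates ran from -0.12 for CXCL1 to 0.24 for CXCL8.

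Receptors for these ligands were read from a list of 8 genes. CXCR2, the receptor of the neutrophil-attracting members, read 8.83 and 8.36 log2 in THP1 with vitamin D3 and alone and at most 4.31 on the colon cancer arrays, and differed by 4.55 ± 0.08. CXCR4, the receptor of CXCL12, differed by 4.99 ± 0.13 between THP1 and the carcinoma lines. Both entered that contrast through the THP1 arrays alone, so these values are a description. In coculture none of 5 tested receptors passed. CXCR4 gave 0.43 ± 0.14 (limma, adjusted p = 0.101) and CXCR6, the CXCL16 receptor, -0.14 ± 0.07 (adjusted p = 0.27). CXCR4 was bright enough for this test on 1 colon cancer array only, cocultured Hke3 labelled vitamin D3 (6.32 log2). A difference was thus built in, and its value is a description. That array also had the high SRGN value, and CXCR4 read 10.29 and 10.94 in THP1 with vitamin D3 and alone. Whether RNA of THP1 cells adds to the CXCR4 value was not tested. The median difference of the 5 receptors was 0.02 log2, and that of all genes tested -0.02. CXCR3, the receptor of CXCL10 and CXCL11, was lower in Hke3 (-0.19 ± 0.06, adjusted p = 0.0417), a call kept in 1 of 8 fits that left out 1 array. None of 2 tested genes among 7 other CXC ligands passed for coculture or line. A further one, CXCL13, which attracts B cells, was not bright enough in the carcinoma lines to be tested there; it read 7.05 in THP1 with vitamin D3 and 8.63 in THP1 alone.

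Among all 13243 genes tested, 24.8% were higher in Hke3 than in HCT116 and 15.7% lower, with a median difference of 0.01 log2. Of 10 NF-kB subunits and inhibitors tested, 6 were higher in Hke3 and none lower, with a list median of 0.26 log2. TNFAIP3, an NF-kB-induced inhibitor of the pathway (1.36 ± 0.17, adjusted p = 0.000647), NFKBIA, the gene of the inhibitor IkB-alpha (0.96 ± 0.06, adjusted p = 2.04e-05), NFKBIZ (0.91 ± 0.17) and the subunit REL (0.82 ± 0.12) were among them, and these 4 also passed without both arrays labelled coculture with vitamin D3. With coculture 1 of 10 passed, the subunit NFKB2 (0.32 ± 0.06, adjusted p = 0.0239), where 7.82% of all genes tested did. Across all the lists 8 genes passed for coculture. Without both arrays labelled coculture with vitamin D3 all 8 had the same sign but 0 passed, with adjusted p from 0.167 to 0.355, and with the block of the other 2 factors 3 passed (NFKB2, IRF7 and IRF9). None of the 8 passed in every fit that left out 1 array, and NFKB2 passed in 2 of 8. Over all genes, the main fit called 1035 for coculture and the fits without 1 array 39 to 459. The fit with the block called 259, and the one without both arrays 1. In THP1 the vitamin D3 difference exceeded that of the carcinoma lines for 1 of 10, NFKBIA (0.83 ± 0.13, adjusted p = 0.00934), which read 12.53 with vitamin D3 and 11.68 alone.

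Coculture called 7.82% of 13243 genes, 3.76% with higher values, and fits on fewer arrays called fewer genes, as given above. Among inducing cytokines and their receptors, 2 of 12 tested passed for coculture, IL1RAP, the accessory chain of the IL-1 receptor (0.51 ± 0.12, limma, adjusted p = 0.0418), and IFNGR1, an interferon gamma receptor chain (0.21 ± 0.05, adjusted p = 0.0493). Without both arrays labelled coculture with vitamin D3 neither passed (0.39, adjusted p = 0.329 for IL1RAP, and 0.18, adjusted p = 0.355 for IFNGR1), and of the 8 fits without 1 array IL1RAP passed in 2 and IFNGR1 in 0. IL1B, which encodes an inducer of the neutrophil-attracting members, read 7.85 in THP1 with vitamin D3 and 7.09 alone, a larger vitamin D3 difference than in the carcinoma lines (0.85 ± 0.15, adjusted p = 0.0183). Of 4 interferon factors tested, IRF7 (0.69 ± 0.10, adjusted p = 0.0144) and IRF9 (0.52 ± 0.07, adjusted p = 0.0135) passed for coculture. Both were lost without HCT116 with vitamin D3 (adjusted p = 0.0509) and without both arrays labelled coculture with vitamin D3 (0.91 for IRF7 and 0.60 for IRF9, adjusted p = 0.167 each). CXCL10 and CXCL11, ligands that interferon induces, lay at most at 4.96 and 3.91 log2 on the colon cancer arrays. All 4 interferon factors were higher in Hke3 and in THP1, where 24.8% and 27.2% of all genes tested were. Of these factors IRF1 (adjusted p = 0.0514) and IRF3 (adjusted p = 0.164) did not pass for the line without both arrays labelled coculture with vitamin D3.

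Messenger RNA decay factors shorten the life of chemokine transcripts, and ELAVL1 opposes them. For coculture, where 3.76% of 13243 genes were higher and 4.05% lower, 2 of 6 passed with lower values. They were KHSRP (-0.32 ± 0.07, limma, adjusted p = 0.0379) and ELAVL1 (-0.29 ± 0.06, adjusted p = 0.0279). Neither passed without both arrays labelled coculture with vitamin D3 (-0.45, adjusted p = 0.173 and -0.32, adjusted p = 0.227), and of the 8 fits without 1 array KHSRP passed in 0 and ELAVL1 in 1. The list's median was -0.13 log2. Against 24.8% of all genes tested, 4 of 6 were higher in Hke3, among them ZFP36 (0.63 ± 0.12, adjusted p = 0.00396) and ZFP36L1 (0.41 ± 0.09). Of 4 ligand-processing proteases tested, DPP4, which trims CXCL10 and CXCL11, passed for coculture (0.56 ± 0.11, adjusted p = 0.0278; 0.73, adjusted p = 0.167 without both those arrays; 2 of 8 fits without 1 array) and was higher in Hke3 (1.08 ± 0.11, adjusted p = 0.000263). The sheddase gene ADAM17 gave 0.29 ± 0.08 with coculture (adjusted p = 0.0743).

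The 3 members whose values spanned at least 1 log2 over the 8 colon cancer arrays were each compared with 920 genes of like span. The Pearson correlations below are the highest found, a description across arrays that share lines and treatments. CXCL8 ran closest to TNIK (r = 0.996), CBLC (0.994) and STAT3 (0.993), CXCL2 to ZFP36 (0.972), MAN1A1 (0.964) and TMEM200A (0.953), and CXCL1 to CASTOR1 (0.966), MATCAP1 (0.953) and ATP8B3 (0.943). All 9 had a higher mean in Hke3 than in HCT116, for example 9.33 and 8.32 log2 for TNIK. Among the members, CXCL8 correlated with CXCL2 at r = 0.923, with CXCL16 at 0.908 and with CXCL1 at 0.868, and with CXCL3 at -0.129.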

How the data were processed

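The deposited values are log2 intensities per probe set, made by the authors with RMA in the R package affy, per the submitters' processing notes; no version is given in the sources used here. RMA corrects background, quantile-normalises and summarises probes. Whether the 10 arrays were normalised together is not given in the sources used here. Array medians lay between 6.15 and 6.21 log2. Precision is limited by the number of arrays.

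Arrays were grouped by their titles. Of 54675 probe sets, 41097 map to 1 symbol and 1801 to several, which were left out. Genes whose highest value on the arrays of a fit exceeded 6.18 log2, the median of all values, were tested with limma 3.58.1 in R 4.3.3: for the 8 colon cancer arrays with additive terms for line, coculture and vitamin D3 (4 residual degrees of freedom), with each interaction added alone (3), and for THP1 against the carcinoma lines over 6 arrays (2). With 1 array per condition, pairs that differ in 1 factor stand in for replicates, so p-values measure the spread between these pairs. Tests were two-sided with Benjamini-Hochberg adjustment over all genes tested and a threshold of 0.05. Values after ± are standard errors. The model was tested on simulated data. The members, gene lists and tests were chosen with earlier results of these data known. Promoter sequences are from RefSeq (GRCh38.p14), aligned with Biopython 1.88 under Python 3.11.15; plots used matplotlib 3.10.9.

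Members bright enough for a test are named in each comparison, and the others are given by their values or range. From each list, genes past the threshold are named (up to 4 by smallest p), or otherwise those with the smallest p. For each member spanning at least 1 log2, the 3 genes with the highest correlation are named. ADAM17 falls outside this rule and was chosen after its values were seen.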

Additional observations from a re-analysis of the deposited data

Results flagged for a closer look

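The difference of THP1 with vitamin D3 over THP1 alone departed from the same difference in the carcinoma lines for 5 members, by limma over all 10 arrays: CXCL8 (4.37 log2), CXCL1 (3.85), CXCL6 (3.05), CXCL2 (2.47) and CXCL14 (-1.69). CXCL6 and CXCL14 were bright enough for this fit through 1 THP1 array each, so for them the value is a description. The value of CXCL2 rests on 1 probe set, as its others differed by -0.29 and 0.05 between the THP1 arrays. Of 13879 genes in this fit 4.09% passed, 2.8% with a higher value in THP1 and 1.29% with a lower one. The THP1 pair has 1 array per condition, so its own spread is not known. No condition has 4 or more arrays, so no array could be examined as an outlier within its group. Along with these chemokines, 2 of 13 monocyte and macrophage markers, CD14 and LYZ, were at least 2-fold higher with vitamin D3 between the same arrays. Of all 12717 genes considered 1.56% were. The median difference of the 13 markers was 0.16 log2, and FCER1G was lower, at 12.14 with vitamin D3 and 12.63 alone. CD14 read 13.77 with vitamin D3 and 8.29 alone, and LYZ 11.23 with vitamin D3 and 9.45 alone. Their part in the chemokine values was not tested.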

How the results depend on the processing

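No paired analysis was possible because each condition has 1 array and replicate numbers therefore pair nothing; arrays that differ in 1 factor were paired instead by the block of the other 2 factors. Settings tried were keeping dim genes, a stricter filter (75th percentile of all values), other probe sets, other scalings, other error models and leaving out each array; those without both arrays labelled coculture with vitamin D3, or on the 4 or 6 arrays without coculture, and all of those on the THP1 vitamin D3 difference and on the listed genes, were chosen after seeing the data. For coculture the genes past the threshold numbered 656 with no filter, 259 with a block of the other 2 factors, 1 without both arrays labelled coculture with vitamin D3, and 39 to 459 without 1 array. The members past it numbered 0 with the block, without both those arrays and at the 75th percentile, which leaves CXCL8 untested, and 0 to 1 without 1 array, and CXCL16 gave -0.023 without both. For the line, 1 member passed at the 75th percentile, where 1 was bright enough to be tested.

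For vitamin D3 in the carcinoma lines, 1 gene passed on the 4 arrays without coculture, where CXCL8 gave -0.082 and CXCL16 -0.034. The second CXCL2 probe set gave -0.018, and CXCL8 lay between -0.10 and 0.24 without 1 array. For line by coculture, the genes numbered 277 with no filter, 973 at the 75th percentile, 1169 with a trended robust variance, 304 without both arrays and 101 to 282 without 1. CXCL8 gave 0.0031 with averaged probe sets and 0.49 with its second, and without 1 array CXCL1 ran from -0.20 to 0.12 and CXCL16 from -0.19 to 0.11. For line by vitamin D3, the same ranges were -0.25 to 0.022 for CXCL1, -0.21 to 0.65 for CXCL2, -0.21 to 0.70 for CXCL8 and -0.13 to 0.17 for CXCL16. For coculture by vitamin D3, they were -0.0080 to 0.26 for CXCL1, -0.35 to 0.58 for CXCL2 and -0.21 to 0.70 for CXCL8, with 0 to 1 genes past the threshold, against 2 with averaged probe sets and 10 with all 3 interactions. The second CXCL2 probe set gave -0.13 there.

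For THP1 against the carcinoma lines, 5 members passed on all 10 arrays. In the main fit 3 of 7 tested members passed, where 66.3% of 13778 genes did. Without 1 array CXCL1 ran from -0.28 to 3.64 and CXCL2 from -0.48 to 2.05. For the vitamin D3 difference of THP1 less that of the carcinoma lines, 3 members passed at the 75th percentile and 1075 genes on the 6 arrays. The main fit called 5 members and 567 of 13879 genes (4.09%). The second CXCL2 probe set gave -0.27, with -0.29 for the THP1 pair itself. The cause of these shifts was not tested, except that a stricter filter tests fewer genes. Members under 6.18 log2 lie where these arrays resolve little.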
